A study of Mus musculus with 568 samples.

Results

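The 10 genes described here are *Trp53*, which encodes the tumour suppressor p53, and 9 members of the BCL2 family of apoptosis regulators, *Bax*, *Bak1*, *Bcl2*, *Bcl2l1*, *Mcl1*, *Bcl2l11*, *Bbc3*, *Pmaip1* and *Bid*. The list names them and uses no measured value as a rule, but it was drawn up with earlier results of these data known. All 10 were found among the 16335 genes of the bulk RNA-seq table and among the 15718 genes of the single-cell table, and all 10 passed the bulk filter on a mean normalized count above 10. The series followed female mouse cells of the XRep line from embryonic stem cells (ESCs) through epiblast-like cells (EpiLCs) to primordial germ cell-like cells (PGCLCs) and on to germ cells grown in reconstituted ovaries (rOvaries), and asked how activity of the X chromosome relates to these steps.

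All groups shared 1 genotype. XRep is a hybrid 129S1/SvImJ, CAST/EiJ line with a *Tsix* truncation and a GFP reporter on the *mus* X chromosome, a tdTomato reporter on the *cas* X, an rtTA transgene at *Rosa26*, and piggyBac transgenes through which doxycycline switches on *Prdm14*, *Blimp1* (*Prdm1*) and *Tfap2c*. ESCs came from serum and LIF culture and EpiLCs from 48 h of induction and another 48 h after a split, and neither was sorted. PGCLCs were aggregates kept with 1.5 µg/ml doxycycline for 5 days and sorted as CD61+ and SSEA1+ cells that had kept (XGFP+) or lost (XGFP-) the reporter of the *mus* X. Each of these 4 groups had 4 bulk libraries. For rOvaries, sorted PGCLCs were mixed with 75000 somatic cells of E13.5 female gonads and mesonephros and cultured for 6 days. Germ cells that derived from XGFP+ PGCLCs and were still positive are called XGFP+ constitutive, and those that derived from XGFP- PGCLCs were sorted into XGFPhigh, XGFPintermediate and XGFPlow. The germ cells were thus made by forced expression of 3 factors in a single genetic background. The study describes its bulk samples as 2 clones with 2 technical replicates each, while the labels number 4 libraries without naming a clone, so the p-values below measure the spread between libraries, which may partly be technical and would then be too small.

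The BCL2 family sets the threshold for mitochondrial apoptosis. BAX and BAK1 are the effectors that form pores in the outer mitochondrial membrane, BCL2, BCL-XL (the product of *Bcl2l1*) and MCL1 are the guardians that hold them in check, and the BH3-only proteins BIM (*Bcl2l11*), PUMA (*Bbc3*), NOXA (*Pmaip1*) and BID relay stress by binding guardians or effectors. p53 is a transcription factor that is controlled mainly at the level of protein stability, through the ubiquitin ligase MDM2, and *Bax*, *Bbc3* and *Pmaip1* are among its classical targets. Primordial germ cells depend on this balance in the embryo, where BCL-XL and MCL1 are known for germ cell survival and BAX for the removal of misplaced germ cells.

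The promoters of *Trp53*, of its classical target *Bax* and of *Bak1*, the effector that changed most, are shown because they belong to a flat, a mildly changed and a strongly changed gene. They are the 250 bases before the RefSeq start on build GRCm38.p6, 5′ to 3′ on the strand of the gene, with capitals on a p53 half-site where 1 was found.
Trp53, chr11:69580109-69580358, plus strand: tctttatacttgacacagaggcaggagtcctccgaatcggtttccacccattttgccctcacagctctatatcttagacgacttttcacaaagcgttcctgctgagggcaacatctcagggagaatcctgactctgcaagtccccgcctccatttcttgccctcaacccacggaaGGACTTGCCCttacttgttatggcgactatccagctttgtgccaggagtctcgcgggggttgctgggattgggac
Bax, chr7:45466899-45467148, minus strand: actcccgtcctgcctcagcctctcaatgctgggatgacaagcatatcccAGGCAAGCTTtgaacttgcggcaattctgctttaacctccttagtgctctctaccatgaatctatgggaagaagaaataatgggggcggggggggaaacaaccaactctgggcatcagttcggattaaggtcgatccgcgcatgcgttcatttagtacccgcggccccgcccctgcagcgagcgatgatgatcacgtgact
Bak1, chr17:27028628-27028877, minus strand: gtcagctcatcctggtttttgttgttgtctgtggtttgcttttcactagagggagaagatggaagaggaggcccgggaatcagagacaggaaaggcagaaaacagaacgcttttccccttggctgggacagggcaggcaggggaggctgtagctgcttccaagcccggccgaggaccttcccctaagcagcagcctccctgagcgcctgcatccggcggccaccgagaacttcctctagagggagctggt
The half-site is the palindromic 10-base p53 consensus, searched on both strands in windows from 250 bases before to 50 bases after each start. The full site is 2 such half-sites, adjacent or with a short spacer between them. Of the 10 genes, 9 had a window in the RefSeq table, 14 windows in all. The classical target *Pmaip1* was the gene without a window, so the search did not cover it. A half-site lay in the windows of *Trp53*, 75 bases before the start, and of *Bax*, 201 bases before it, against 8.36% of all 32851 windows, and the full site lay in none of the 9 genes and in 0.0731% of windows. The E-box CACGTG, also a palindrome, lay in *Bax* 9 bases before and 35 bases after the start, in *Trp53* 10 bases after it and in 1 of the windows of *Bbc3* 64 bases before it, against 7.15% of windows. CpG pairs were dense at *Bcl2* (44 per window), *Mcl1* (33), *Bcl2l11* (27 and 38) and *Bbc3* (30 to 39) and fewer at *Trp53* (10) and *Bak1* (11), with a median of 7 over all windows. These are matches of letters only.

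Bulk libraries held 29.8 to 46.5 M reads on genes. Summed normalized counts of marker lists went with the labels of ESCs and EpiLCs, and for PGCLCs in part. 6 naive pluripotency genes summed to 127474 to 143706 in ESCs and to 2673 to 7018 in EpiLCs, and 5 formative epiblast genes to 59366 to 70365 in EpiLCs and to 3282 to 5623 elsewhere. For 6 germ cell specification genes, 3 of which are also the transgenes, the sums were 24237 to 27004 in PGCLCs, 8436.5 to 9104 in ESCs and 1287 to 2295 in EpiLCs. Another 3 germ cell genes, *Dazl*, *Ddx4* and *Mael*, summed to 3483 to 8755 in XGFP+ PGCLCs. In XGFP- PGCLCs they summed to 339 to 1164, overlapping both EpiLCs (1026 to 1403) and ESCs (680 to 909). XGFP+ PGCLCs carried more of the naive genes (44545 to 51689) than XGFP- PGCLCs (24247 to 31038), and the part of such differences in the results below was not tested. In bulk RNA, fewer cells of a type and less RNA per cell cannot be told apart.

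*Trp53* was the flattest of the 10 genes in bulk. It lies on chr11:69580359-69591873 (mm10, plus strand). Its normalized counts were 7111, 7266, 7709 and 8131 in the 4 ESC libraries and 7827, 7178, 7426 and 7212 in EpiLCs. In XGFP+ PGCLCs they were 10029, 9076, 9118 and 7914, and in XGFP- PGCLCs 8447, 7938, 8070 and 7660. The XGFP+ libraries lay above all EpiLC libraries, while every other pair of groups overlapped. Means were 7554 ± 461 for ESCs and 7411 ± 298 for EpiLCs, and 9034 ± 867 and 8029 ± 327 for XGFP+ and XGFP- PGCLCs (SD, n = 4 each). *Trp53* was 1.22-fold higher in XGFP+ PGCLCs than in EpiLCs, a log2 difference of 0.28 ± 0.06 (SE; limma, adjusted p = 0.00064). This call was close to the limit of 0.001: it was lost with edgeR (adjusted p = 0.004), with DESeq2 (adjusted p = 0.0056) and with limma on the 2 groups alone (adjusted p = 0.0029). It was also lost without EpiLC replicate 2, 3 or 4, XGFP+ replicate 1, 2 or 3, or XGFP- replicate 2, with limma adjusted p between 0.001 and 0.0034. Here and below, edgeR and DESeq2 were run with only replicates 1 and 4 of the EpiLCs. No other comparison of *Trp53* passed in limma on all libraries. Against ESCs, XGFP+ PGCLCs missed the limit with a log2 difference of 0.25 (limma, adjusted p = 0.0017), and this difference passed it with DESeq2 (adjusted p = 0.0009), with quantile normalization (limma, adjusted p = 7.4e-05) and without XGFP+ replicate 4 (limma, adjusted p = 0.00012). The log2 difference between XGFP- and XGFP+ PGCLCs was −0.17 with an interval of 2 SE from −0.29 to −0.04. A processed pseudogene of *Trp53* is annotated on another chromosome, and how reads common to both were assigned is not given in the sources used here.

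**Figure D1:**
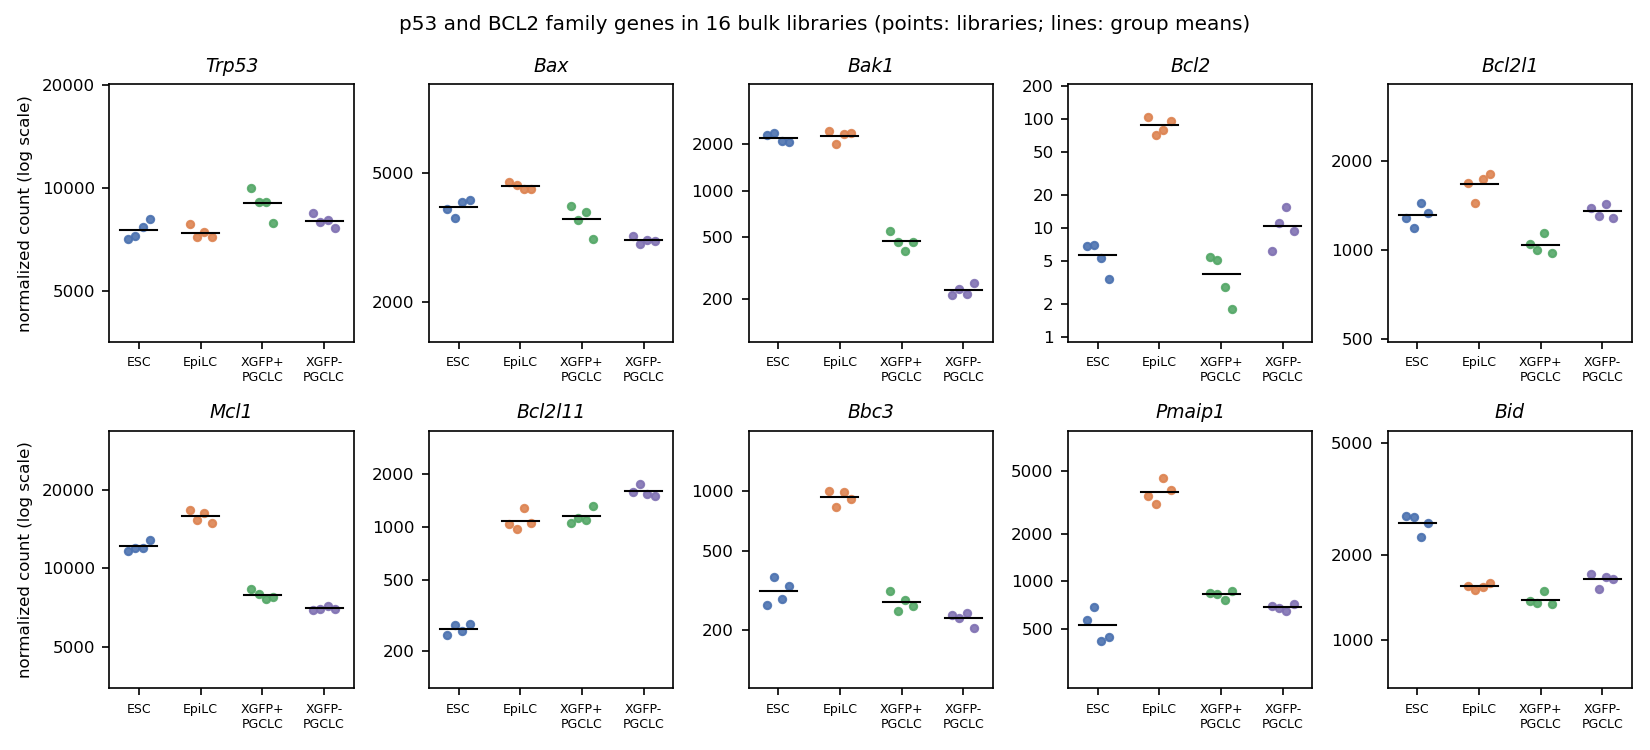
Normalized counts (vertical axes, log scale) of the 10 genes in 16 bulk libraries, with a point per library, a line at each group mean and 4 libraries in each of ESCs, EpiLCs, XGFP+ and XGFP- PGCLCs. EpiLC points sit highest for *Bcl2*, *Mcl1*, *Bbc3* and *Pmaip1*, both PGCLC groups sit far below ESCs and EpiLCs for *Bak1*, and *Trp53* spans only 7111 to 10029.

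The effectors parted company. *Bak1* fell steeply in PGCLCs and further in XGFP- than in XGFP+ cells, whereas *Bax* moved little. *Bak1* lies on chr17:27019810-27029009 (minus strand). It had 2282, 2325, 2077 and 2045 normalized counts in ESCs and 2399, 1983, 2302 and 2338 in EpiLCs. It had 549, 466, 411 and 468 in XGFP+ PGCLCs and 213, 234, 216 and 254 in XGFP- PGCLCs. ESC and EpiLC libraries overlapped, and neither PGCLC group overlapped any other. Against EpiLCs, *Bak1* was 4.77-fold lower in XGFP+ PGCLCs (log2 −2.25 ± 0.09; limma, adjusted p = 1.4e-13) and 9.84-fold lower in XGFP- PGCLCs (log2 −3.29 ± 0.09; limma, adjusted p = 6.7e-16). Between the PGCLC groups it was 2.07-fold lower in XGFP- cells (log2 −1.04 ± 0.09; limma, adjusted p = 4.4e-08), the only decrease among the 10 genes that passed there. These 3 calls held without any single library and with edgeR and DESeq2.

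*Bax*, on chr7:45461697-45466898 (minus strand), ranged from 3624 to 4135 normalized counts in ESCs, from 4462 to 4692 in EpiLCs, from 3139 to 3953 in XGFP+ and from 3020 to 3199 in XGFP- PGCLCs. EpiLC libraries were the highest and lay above all others, and the ranges of the PGCLC groups overlapped. *Bax* fell 1.47-fold from EpiLCs to XGFP- PGCLCs (log2 −0.55 ± 0.06; limma, adjusted p = 2e-07) and was 1.26-fold lower in XGFP+ PGCLCs (log2 −0.34 ± 0.06; limma, adjusted p = 8.7e-05), the latter not called by edgeR (adjusted p = 0.0021). The difference between PGCLC groups, 1.2-fold, did not pass (adjusted p = 0.0087) except without XGFP+ replicate 4 (limma, adjusted p = 0.00048). On a per-kilobase scale, where levels of different genes can be set side by side, *Bax* had 2494, 2892, 2295 and 1970 normalized counts per kb in ESCs, EpiLCs, XGFP+ and XGFP- PGCLCs and *Bak1* 907, 937, 197 and 95.2. *Bax* was thus the more abundant effector in every group. A protein-coding gene on the same strand shares 12.2% of the exon bases of *Bax*, and how reads there were counted was not tested.

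The values of *Bak1* have a limit in the annotation. *Ggnbp1* on the plus strand (chr17:27017987-27037624), a gene known for its product's binding to the spermatogenesis protein gametogenetin, spans *Bak1*, and its exons share 437 of the 2407 exon bases of *Bak1* (18.2%). Another annotated entry of *Ggnbp1* on that strand (chr17:26973217-27036378) shares 177 bases (7.35%). Mean normalized counts of *Ggnbp1* went the other way, from 99 ± 11.7 in ESCs and 86.4 ± 14 in EpiLCs to 409 ± 22.6 in XGFP+ and 639 ± 61.2 in XGFP- PGCLCs (SD, n = 4 each). XGFP- exceeded XGFP+ PGCLCs by 0.64 ± 0.12 on the log2 scale (limma, adjusted p = 0.0003). This gene was picked after its values were seen. The bulk kit keeps strand, but the strand setting of the counting is not given in the sources used here, so how far reads of the pair were kept apart was not tested. In single-cell libraries *Bak1* had almost no reads, also in ESCs. In reads per 1 M reads on the genes of both tables (RPM), *Bak1* was at 71.9 in bulk ESCs and at 0.610 in single ESCs. Its log2 ratio of single to bulk, with 0.1 added to both, was −6.66, where the median of the 9022 genes with at least 5 RPM in bulk ESCs was −0.70 and 0.554% of them were as low or lower. The tables were annotated and normalized separately, and the cause was not tested.

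**Figure D2:**
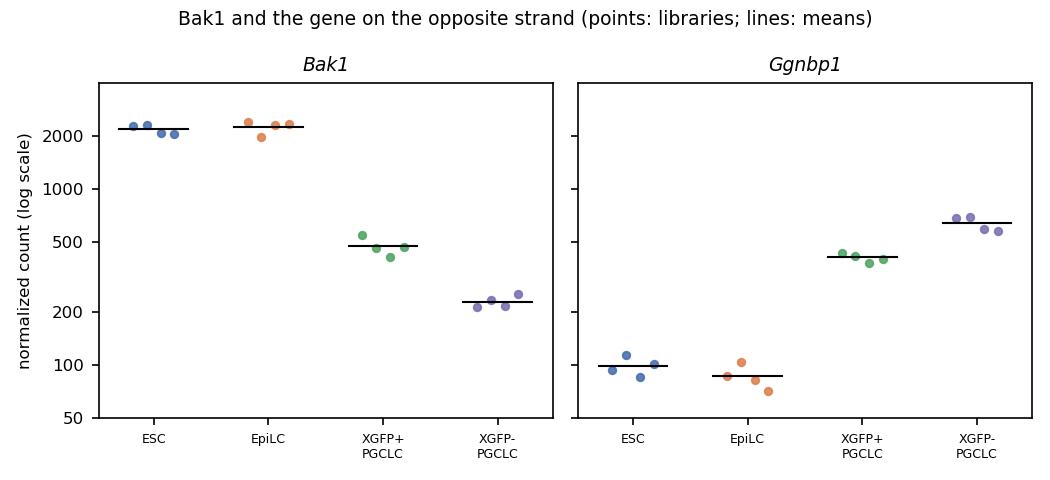
Normalized counts (vertical axis, log scale, shared by both panels) of *Bak1* and of *Ggnbp1* on the opposite strand in 16 bulk libraries, with a point per library and a line at each group mean. *Bak1* drops from about 2045 to 2399 in ESCs and EpiLCs to 213 to 254 in XGFP- PGCLCs, while *Ggnbp1* climbs from means of 99 and 86.4 to 639.

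The guardians were all highest in EpiLCs. *Bcl2* was nearly silent outside EpiLCs, and *Mcl1*, the most abundant member per length in EpiLCs, was lowest in PGCLCs. *Bcl2* lies on chr1:106538178-106714274 (minus strand). Its 4 EpiLC libraries had 103.8, 71.2, 78.5 and 95.8 normalized counts, against 6.74, 6.92, 5.26 and 3.39 in ESCs. In XGFP+ PGCLCs it had 5.44, 5.01, 2.87 and 1.79, and in XGFP- PGCLCs 6.07, 11.2, 15.4 and 9.28. No EpiLC library came near any other, and the XGFP- libraries lay just above the XGFP+ ones. The log2 difference between EpiLCs and ESCs was 3.77 ± 0.33 (limma, adjusted p = 8e-09), and XGFP+ and XGFP- PGCLCs were below EpiLCs by −4.27 and −2.99 (limma, adjusted p = 1.1e-09 and 1.2e-07). These are differences of log2(normalized count + 1), which understate the change of so low a gene. Between PGCLC groups the difference of 1.28 ± 0.33 did not pass (limma, adjusted p = 0.0035), except with quantile normalization (limma, adjusted p = 0.00017), and it rests on counts of 15.4 or fewer per library. An antisense gene covers 6.09% of the *Bcl2* exon bases.

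*Mcl1* lies on chr3:95658788-95663176 (plus strand). It had 11717, 11978, 12014 and 12845 normalized counts in ESCs and 16795, 15310, 16336 and 14906 in EpiLCs. It had 8311, 8014, 7674 and 7766 in XGFP+ PGCLCs and 6957, 6971, 7187 and 7011 in XGFP- PGCLCs. No 2 groups overlapped. *Mcl1* rose 1.30-fold from ESCs to EpiLCs (log2 0.38 ± 0.05; limma, adjusted p = 1.1e-06) and fell 1.99-fold to XGFP+ and 2.25-fold to XGFP- PGCLCs (log2 −0.99 and −1.17, each ± 0.05; limma, adjusted p = 1.8e-12 and 1.4e-13). The 1.13-fold difference between PGCLC groups did not pass (limma, adjusted p = 0.0057). Per kilobase it fell from 4633 in EpiLCs to 2323 in XGFP+ and 2057 in XGFP- PGCLCs, beside 2233 and 1985 for *Trp53* and 2295 and 1970 for *Bax* in the same PGCLC groups.

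*Bcl2l1* lies on chr2:152780668-152831728 (minus strand). It ranged from 1181 to 1439 normalized counts in ESCs, from 1441 to 1806 in EpiLCs, from 978 to 1135 in XGFP+ and from 1283 to 1431 in XGFP- PGCLCs. XGFP- cells thus sat with ESCs, and XGFP+ cells lay below every other group. *Bcl2l1* fell 1.60-fold from EpiLCs to XGFP+ PGCLCs (log2 −0.68 ± 0.08; limma, adjusted p = 2.8e-07) and XGFP- cells had 1.30-fold more of it than XGFP+ cells (log2 0.38 ± 0.08; limma, adjusted p = 0.00058). The latter call was lost without XGFP+ replicate 1, 2 or 4 or XGFP- replicate 1, 2 or 3, at limma adjusted p of 0.0014 to 0.0028, and with quantile normalization (limma, adjusted p = 0.0011). The rise of 1.27-fold from ESCs to EpiLCs (limma, adjusted p = 0.00066) was lost on the 2 groups alone (adjusted p = 0.0037) and without ESC replicate 1, 2 or 4 or EpiLC replicate 1, 3 or 4 (limma, adjusted p = 0.0015 to 0.0033). The decrease from ESCs to XGFP+ PGCLCs (log2 −0.33 ± 0.08) stood at the limit itself. It passed with edgeR (adjusted p = 0.00094), DESeq2 (adjusted p = 2.9e-05) and quantile normalization (limma, adjusted p = 0.00057). In limma it also passed without ESC replicate 2, EpiLC replicate 2 or 4 or XGFP+ replicate 3 (adjusted p = 0.00044 to 0.00095). With the replicate number as a block this decrease passed (limma, adjusted p = 0.00015), and so did that from EpiLCs to XGFP- PGCLCs (limma, adjusted p = 0.0003, against 0.002 without the block). The latter also passed with DESeq2 (adjusted p = 9e-05), with quantile normalization (limma, adjusted p = 9.7e-05) and without EpiLC replicate 2 (limma, adjusted p = 0.00028).

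The BH3-only genes went separate ways. *Bbc3* and *Pmaip1* peaked in EpiLCs and came down in PGCLCs, *Bcl2l11* rose in EpiLCs and stayed up, and *Bid* was highest in ESCs. *Pmaip1* lies on chr18:66458533-66465565 (plus strand). It had 570, 682, 418 and 440 normalized counts in ESCs, 3442, 3105, 4473 and 3757 in EpiLCs, 836, 834, 758 and 867 in XGFP+ PGCLCs and 692, 678, 647 and 711 in XGFP- PGCLCs. The EpiLC libraries stood clear of all others. *Pmaip1* was 7.0-fold higher in EpiLCs than in ESCs (log2 2.82 ± 0.13; limma, adjusted p = 8.5e-13). It was 4.49-fold lower in XGFP+ and 5.42-fold lower in XGFP- PGCLCs than in EpiLCs (limma, adjusted p = 2.9e-11 and 4e-12). XGFP+ PGCLCs stayed 1.56-fold above ESCs (limma, adjusted p = 0.00014), a call lost on the 2 groups alone (adjusted p = 0.0011). XGFP- PGCLCs passed against ESCs only without ESC replicate 2 (limma, adjusted p = 0.00037, against 0.0089 with it). The 2 PGCLC groups did not overlap, but their difference of −0.27 ± 0.13 did not pass (limma, adjusted p = 0.089).

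*Bbc3*, on chr7:16308393-16318205 (plus strand), had 269, 371, 287 and 334 normalized counts in ESCs and 996, 833, 985 and 907 in EpiLCs. It had 315, 250, 284 and 264 in XGFP+ PGCLCs, against 239, 232, 243 and 205 in XGFP- PGCLCs. The EpiLC libraries again stood apart, and XGFP+ PGCLCs overlapped ESCs. *Bbc3* rose 2.95-fold from ESCs to EpiLCs (log2 1.57 ± 0.11; limma, adjusted p = 3.2e-10) and was 3.34-fold and 4.05-fold lower in XGFP+ and XGFP- PGCLCs than in EpiLCs (limma, adjusted p = 5.7e-11 and 5.4e-12). XGFP- PGCLCs against ESCs missed the limit (log2 −0.45 ± 0.11; limma, adjusted p = 0.0011) and passed with DESeq2 (adjusted p = 0.0002), with quantile normalization (limma, adjusted p = 0.00024) and without ESC replicate 1 (adjusted p = 0.00045) or XGFP+ replicate 1 (adjusted p = 0.001, just under the limit).

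*Bcl2l11*, on chr2:128126038-128162547 (plus strand), had 246, 279, 259 and 283 normalized counts in ESCs and 1050, 973, 1279 and 1050 in EpiLCs. It had 1056, 1134, 1093 and 1322 in XGFP+ PGCLCs, against 1585, 1749, 1547 and 1498 in XGFP- PGCLCs. ESCs were far below every other group, XGFP+ PGCLCs overlapped EpiLCs, and XGFP- PGCLCs were the highest. *Bcl2l11* rose 4.08-fold from ESCs to EpiLCs (log2 2.02 ± 0.09; limma, adjusted p = 6.6e-13) and was 1.39-fold higher in XGFP- than in XGFP+ PGCLCs (log2 0.47 ± 0.09; limma, adjusted p = 0.00029). The call between PGCLC groups was lost without XGFP+ replicate 1, 2 or 3 or XGFP- replicate 1 or 2 (limma, adjusted p = 0.0011 to 0.0018). Against ESCs, XGFP- PGCLCs were 5.98-fold higher (limma, adjusted p = 1.4e-14).

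*Bid*, on chr6:120891930-120916853 (minus strand), had 2761, 2739, 2317 and 2596 normalized counts in ESCs and 1556, 1505, 1535 and 1594 in EpiLCs. It had 1369, 1347, 1489 and 1343 in XGFP+ PGCLCs, against 1710, 1520, 1673 and 1647 in XGFP- PGCLCs. Every ESC library was above every other library. *Bid* was 1.68-fold lower in EpiLCs than in ESCs (log2 −0.75 ± 0.06; limma, adjusted p = 4.3e-09) and 1.88-fold and 1.59-fold lower in XGFP+ and XGFP- PGCLCs (limma, adjusted p = 3.5e-10 and 1.4e-08). Its higher values in XGFP- than in XGFP+ PGCLCs did not pass (log2 0.24 ± 0.06; limma, adjusted p = 0.0039). The 3′ neighbour *Bcl2l13*, on the opposite strand, shares 17.7% of the exon bases of *Bid*.

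**Figure D3:**
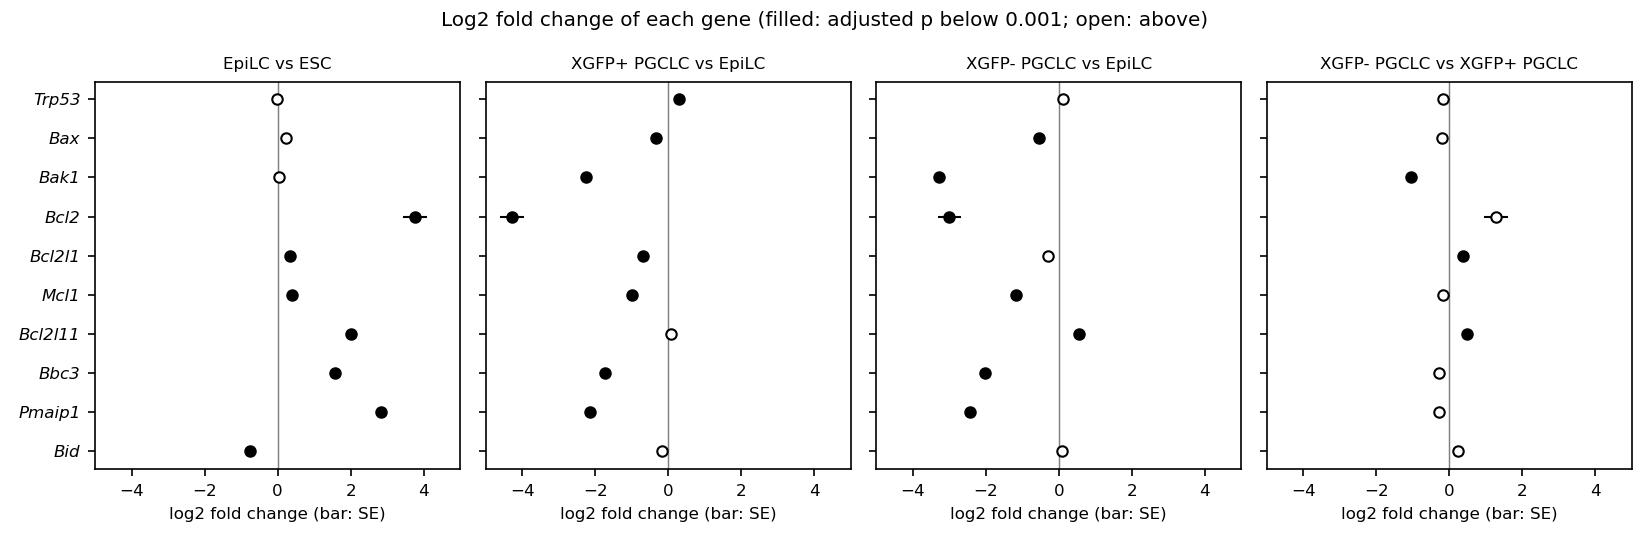
Log2 fold changes (horizontal axes) of the 10 genes for EpiLCs against ESCs, XGFP+ and XGFP- PGCLCs against EpiLCs, and XGFP- against XGFP+ PGCLCs, with bars of 1 SE and filled points where the limma adjusted p was below 0.001. From ESCs to EpiLCs most points lie to the right of 0, from EpiLCs to PGCLCs most lie to the left, and between PGCLC groups only *Bak1*, *Bcl2l1* and *Bcl2l11* are filled.

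Counted together, 6 of the 10 genes were higher and 1 lower in EpiLCs than in ESCs, where 24.9% of the 16281 genes tested were called higher and 22.9% lower (47.8% in all). In XGFP+ PGCLCs against EpiLCs 1 was higher and 7 were lower (all genes 27.8% and 29.5%, 57.3% in all), and in XGFP- PGCLCs against EpiLCs 1 was higher and 6 were lower (29.9% and 31.9%, 61.9% in all). XGFP- PGCLCs differed from XGFP+ PGCLCs in 3 genes, 2 higher and 1 lower (11.3% and 12.5%, 23.8% in all). Against ESCs, XGFP+ PGCLCs had 2 higher and 3 lower (25% and 24.9%, 49.9% in all), and XGFP- PGCLCs had 1 higher and 4 lower (29.8% and 29.6%, 59.4% in all). Between PGCLC groups the 3 of 10 were close to the background, and so were the 5 of 10 in each PGCLC group against ESCs. In EpiLCs against ESCs the members called higher, and in PGCLCs against EpiLCs those called lower, made up a larger share than among all genes, which was not tested. The comparisons share the EpiLC or ESC libraries, so the rise into EpiLCs and the decrease out of them are not independent. Only *Bak1* was called in all 5 comparisons that involve PGCLCs. A threshold on size changed these counts: with an absolute log2 fold change above 1 as well, 4 genes remained in EpiLCs against ESCs (*Bcl2*, *Bcl2l11*, *Bbc3* and *Pmaip1*; 25.8% of all genes), and *Bak1* alone between PGCLC groups (11.2%). By the same rule 4 and 5 genes were called in XGFP+ and XGFP- PGCLCs against EpiLCs (30.4% and 34.9%), and 2 in each PGCLC group against ESCs (24.8% and 33.5%). At a limma adjusted p below 0.05 on its own, 8 genes were called in EpiLCs against ESCs (67.3% of all genes), and 9 and 8 in XGFP+ and XGFP- PGCLCs against EpiLCs (75.5% and 78.2%). That limit gave 9 genes between PGCLC groups (48.6%), and 7 and 8 in XGFP+ and XGFP- PGCLCs against ESCs (69.9% and 76.4%).

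Most p53 target genes were higher in EpiLCs than in ESCs and lower again in PGCLCs. Of 26 p53 target genes, 16 were higher and 6 lower in EpiLCs than in ESCs, with a median log2 change of 1.06 against 0.01 for all genes. Among all genes 24.9% were called higher and 22.9% lower in that comparison (47.8% in all). In XGFP+ PGCLCs against EpiLCs 7 targets were higher and 16 lower (median −1.24), and in XGFP- PGCLCs 6 and 16 (median −1.29). The shares of all genes were 27.8% and 29.5% (57.3% in all) for XGFP+ and 29.9% and 31.9% (61.9% in all) for XGFP- PGCLCs. *Plk2*, a polo-like kinase, went from a mean of 861 normalized counts in ESCs to 5695 in EpiLCs, then to 120 in XGFP+ and 218 in XGFP- PGCLCs (XGFP+ against EpiLCs, log2 −5.55 ± 0.22; limma, adjusted p = 1.8e-13). *Ccng1*, which encodes cyclin G1, went from 9761 to 32362 and then to 4829 and 3278. *Btg2*, an antiproliferative gene, had 1569, 3657, 311 and 596, and *Phlda3*, an inhibitor of AKT signalling, had 1310, 3861, 668 and 410 in the same order of groups. *Eda2r*, an X-linked death domain receptor, had 4144, 10722, 3280 and 1563. These genes were taken by the size of their change, and all of them rose and then fell. The 6 targets that were lower in EpiLCs than in ESCs are not among them. Between PGCLC groups 1 target was called higher in XGFP- cells, *Btg2* (log2 0.94 ± 0.14; limma, adjusted p = 1.8e-05), and 4 lower, among them *Eda2r* (log2 −1.08 ± 0.15; limma, adjusted p = 8.7e-06) and *Phlda3* (log2 −0.71 ± 0.13; limma, adjusted p = 0.00024). Among all genes 11.3% were higher and 12.5% lower there, so these counts were near the background.

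Of 21 regulators and relatives of p53, 9 were higher and 5 lower in EpiLCs than in ESCs (median 0.40), 6 and 6 in XGFP+ PGCLCs against EpiLCs (median 0.06), and 7 and 5 in XGFP- PGCLCs against EpiLCs (median −0.11). The shares of all genes called in the same comparisons were 47.8%, 57.3% and 61.9%. The 12 of 21 called in each PGCLC group against EpiLCs were near those shares. *Mdm2*, which is both a target and the ligase that removes p53, rose from 4005 ± 788 in ESCs to 10933 ± 2230 in EpiLCs and returned to 4430 ± 228 in XGFP+ and 4166 ± 430 in XGFP- PGCLCs (SD, n = 4). Its partner *Mdm4*, an inhibitor of p53, ran the opposite course, with 5469 ± 459, 2618 ± 204, 7936 ± 1051 and 8087 ± 516 (EpiLCs against ESCs, log2 −1.06; XGFP+ against EpiLCs, log2 1.59, limma adjusted p = 5.9e-12). The p53 relative *Trp73* was a gene of EpiLCs, at 757 there against 63.8 in ESCs, 118.5 in XGFP+ and 148 in XGFP- PGCLCs. *Cdkn2a*, whose ARF product restrains MDM2, was lower in XGFP- than in XGFP+ PGCLCs (35.5 against 94.3; log2 −1.53 ± 0.29; limma, adjusted p = 0.00027).

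Of 18 further BCL2 family genes 13 were tested, of which 6 rose and 6 fell from ESCs to EpiLCs (median 0.21), 7 were higher and 4 lower in XGFP+ PGCLCs than in EpiLCs (median 0.66), and 6 were higher and 3 lower in XGFP- PGCLCs (median 0.59). In the same comparisons 47.8%, 57.3% and 61.9% of all genes were called. The BH3-only genes *Bik*, *Bmf* and *Bad* were higher in PGCLCs than in EpiLCs, unlike *Bbc3* and *Pmaip1*. *Bik* had 31.6 ± 10.9 normalized counts in ESCs and 57 ± 11.6 in EpiLCs but 477 ± 45.3 and 677 ± 43.7 in XGFP+ and XGFP- PGCLCs (XGFP+ against EpiLCs, log2 3.06 ± 0.19; limma, adjusted p = 5.2e-11). *Bmf* had means of 141.8, 322, 711 and 684 in the same order of groups. *Bok*, an effector-like relative of *Bax* and *Bak1*, fell from 946 ± 102 in EpiLCs to 117.4 ± 9.58 in XGFP+ and 48.4 ± 11.5 in XGFP- PGCLCs, and was lower in XGFP- than in XGFP+ cells by −1.29 ± 0.15 (limma, adjusted p = 2.2e-06).

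Downstream of mitochondria, 6 of 25 caspase cascade genes rose and 6 fell from ESCs to EpiLCs (median 0.12), 3 were higher and 13 lower in XGFP+ PGCLCs than in EpiLCs (median −0.53), and 6 were higher and 14 lower in XGFP- PGCLCs (median −0.58). The 12 of 25 called in EpiLCs against ESCs were close to the 47.8% of all genes called there. In XGFP+ and XGFP- PGCLCs against EpiLCs 57.3% and 61.9% of all genes were called. *Cflar*, which encodes the caspase 8 inhibitor FLIP, had 455 ± 45.7 normalized counts (SD, n = 4) in XGFP- and 171 ± 25.3 in XGFP+ PGCLCs (log2 1.41 ± 0.11; limma, adjusted p = 1.3e-08). *Endog*, a mitochondrial nuclease, was lower in XGFP- than in XGFP+ PGCLCs (94.8 against 224 normalized counts; log2 −1.23 ± 0.12; limma, adjusted p = 1.7e-07).

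**Figure D4:**
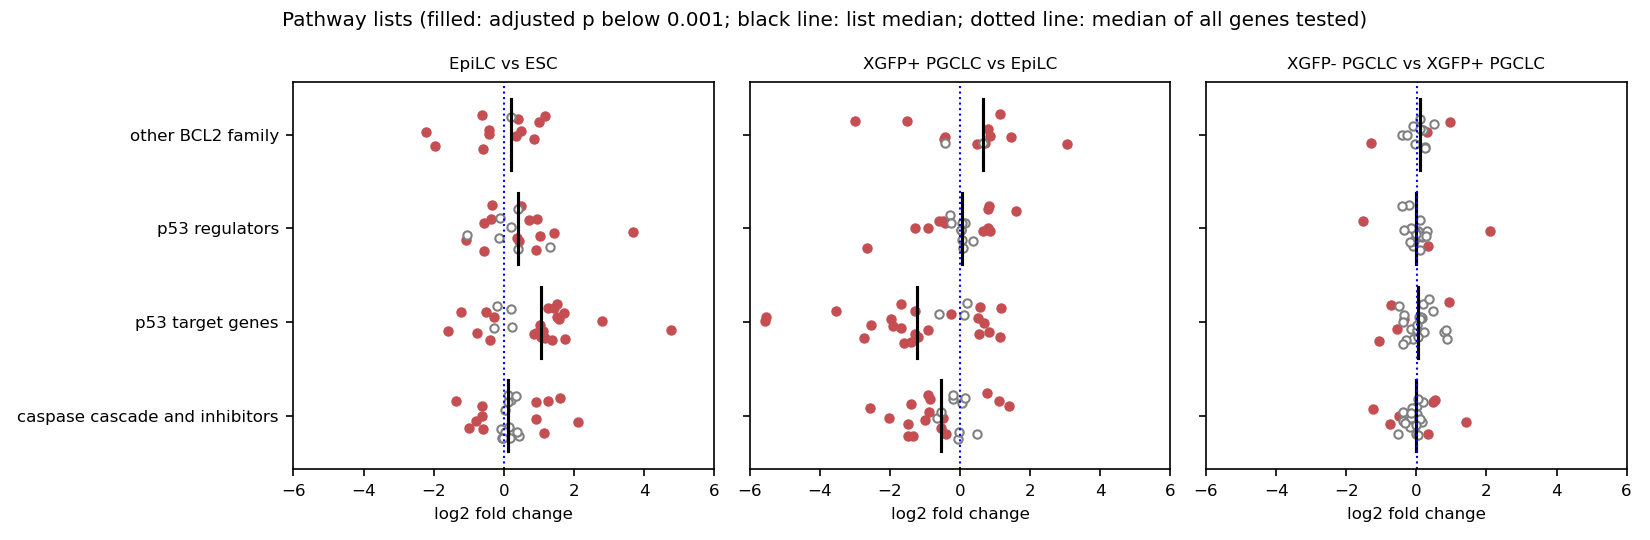
Log2 fold changes (horizontal axes) of the genes in 4 pathway lists for EpiLCs against ESCs, XGFP+ PGCLCs against EpiLCs and XGFP- against XGFP+ PGCLCs, with a point per gene, a black line at the list median and a dotted line at the median of all genes tested. The median of the p53 target list lies to the right of the dotted line in EpiLCs against ESCs (1.06) and to its left in XGFP+ PGCLCs against EpiLCs (−1.24), and all list medians are close to 0 between the PGCLC groups.

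2 genes of the caspase list, *Xiap*, an inhibitor of caspases, and *Aifm1*, apoptosis-inducing factor, are X-linked. Their allelic ratio is *mus* reads over *mus* plus *cas* reads, at a depth that is unknown. Between the PGCLC groups it went with the reporter of the *mus* X, the value on which PGCLCs were sorted. In EpiLCs it was already below XGFP+ PGCLCs, although the paper reports that EpiLCs still held the GFP protein. The *mus* share of *Xiap* was 0.430, 0.479, 0.461 and 0.476 in ESCs, 0.240, 0.275, 0.255 and 0.233 in EpiLCs, 0.408, 0.398, 0.388 and 0.395 in XGFP+ PGCLCs and 0.0216, 0.0212, 0.0141 and 0.0247 in XGFP- PGCLCs. For *Aifm1* the means were 0.490 ± 0.0501, 0.184 ± 0.0607, 0.392 ± 0.0192 and 0.0382 ± 0.0252 (SD, n = 4). Total expression was 1.70-fold lower in XGFP- than in XGFP+ PGCLCs for *Aifm1* (2595 ± 98.6 against 4401 ± 160; limma, adjusted p = 2.1e-09), and for *Xiap* the 1.46-fold difference did not pass (3383 ± 273 against 4948 ± 1023; limma, adjusted p = 0.0014).

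Across the 16 libraries, the log2 values most like those of *Trp53* in 11702 genes averaging over 100 normalized counts were *Twf2* (Pearson's r = 0.893), *Castor1* (0.880) and *Ehmt2* (0.878). Those most like *Bcl2*, the gene with the widest range of group means, were *Nrcam* (0.972), *Epdr1* (0.968) and *Zfp266* (0.967), all highest in EpiLCs. The points share libraries and groups, so these values are a description.

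In rOvary germ cells each sorted population was 1 sample, because the labels name no separate cultures within it, so differences between populations had no replicate check and no test. RPM values here are per 1 M reads on all genes of the single-cell table, from reads summed over the cells that passed quality limits and carried the germ cell gene *Dazl*: 80.9% of the XGFP+ constitutive wells (76 of 94), 81.9% of the XGFPhigh, 80.6% of the XGFPintermediate and 66.9% of the XGFPlow wells (91 cells), 401 cells in all, beside 24 single ESCs. Median reads per cell were 358390 in XGFP+ constitutive cells and 635684 to 644883 in the other populations. XGFP+ constitutive cells were all sequenced on lane 2, which also held 12 to 14 cells of each other population, and the remaining cells of each, at least 79, were on lane 3. The 10 empty wells held at most 242 reads each and none on these genes. Intervals below are exact 95% Poisson intervals for reads and cover counting error only. They do not cover the spread between cells.

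*Trp53* was at 396 RPM (392 to 401) in XGFPhigh cells and 346 (339 to 353) in XGFP+ constitutive cells, against 146 (142.9 to 148.3) in XGFPintermediate and 194 (191 to 198) in XGFPlow cells. The lowest, median and highest cells were at 0, 392 and 876 in XGFPhigh, 25.3, 377 and 748 in XGFP+ constitutive, 0, 111.7 and 587 in XGFPintermediate and 0, 153 and 938 in XGFPlow. The populations overlapped widely from cell to cell, with the medians of the first pair above those of the second. *Mcl1* was likewise higher in the first pair than in the second, with 173 and 181 in XGFPhigh and XGFP+ constitutive cells and 76.4 and 105 in XGFPintermediate and XGFPlow cells, and so did *Pmaip1*, with 22.9 and 26.3 against 4.80 and 7.0. *Pmaip1* reads were found in 55.9% of XGFPhigh cells (exact binomial interval 46.5 to 65.1%), 47.4% of XGFP+ constitutive cells, 11.2% (6.10 to 18.4%) of XGFPintermediate cells and 17.6% of XGFPlow cells. After each cell was thinned to 300000 reads these shares were 54.4%, 39.7%, 10.7% and 18.8%.

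*Bax* was at 367 and 398 RPM in XGFPhigh and XGFP+ constitutive cells and at 257 and 303 in XGFPintermediate and XGFPlow cells. *Bcl2l1* ran the other way, at 15.3 and 11.7 against 23.8 and 21.2. *Bbc3* stood at 7.05, 6.45, 2.19 and 5.88 and *Bcl2l11* at 19.8, 15.4, 12.7 and 14.3 in XGFPhigh, XGFP+ constitutive, XGFPintermediate and XGFPlow cells. *Bid* varied least, between 57.3 and 81.5 in these populations, and was at 155 in ESCs. *Bak1* and *Bcl2* were below 1 RPM in all 4 populations, and *Bcl2* had no read in the 24 ESCs, which allows up to 0.142 RPM.

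**Figure D5:**
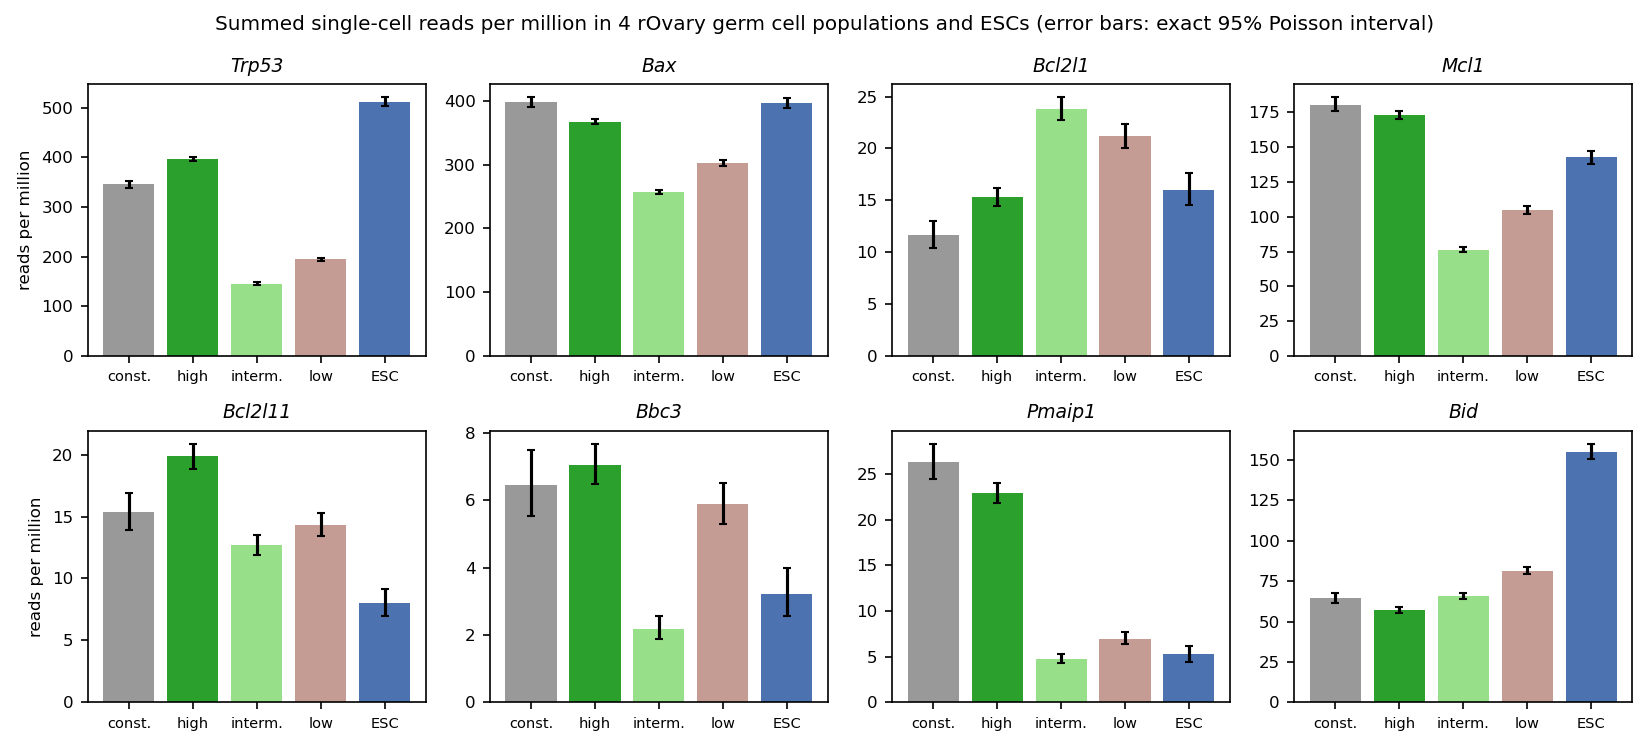
RPM from reads summed over cells (vertical axes, from 0) of 8 genes in XGFP+ constitutive, XGFPhigh, XGFPintermediate and XGFPlow rOvary germ cells and in single ESCs, with exact 95% Poisson intervals as error bars. *Trp53*, *Mcl1* and *Pmaip1* are higher in the first 2 populations (*Trp53* 346 and 396) than in the next 2 (146 and 194), and *Bid* is highest in ESCs (155).

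By a fixed limit of 2-fold at an average of at least 5 RPM, none of 8 genes differed between XGFPhigh and XGFP+ constitutive cells, where 1.58% of all genes were higher and 1.13% lower (2.71% in all). Between XGFPhigh and XGFPintermediate cells 3 of 7 were higher, *Trp53* (2.72-fold), *Mcl1* (2.27-fold) and *Pmaip1* (4.77-fold), against 6.56% of all genes higher and 11.2% lower (17.8% in all). Between XGFPhigh and XGFPlow cells 2 of 8 were higher, *Trp53* (2.04-fold) and *Pmaip1* (3.27-fold), against 6.02% higher and 8.66% lower (14.7% in all). These folds depended on the lane. On lane 3, XGFPhigh cells were above XGFPintermediate cells 2.94-fold for *Trp53*, 2.32-fold for *Mcl1* and 5.44-fold for *Pmaip1*. On lane 2, with 14 and 13 cells, the folds were 1.66, 1.96 and 1.35, in the same direction but all under the limit. Against the 12 XGFPlow cells of lane 2 the folds were 1.83 for *Trp53* and 1.62 for *Pmaip1*, both under the limit, and 2.82 for *Mcl1*, past it, while on lane 3 they were 2.07, 3.47 and 1.56. The XGFP+ constitutive cells were all on lane 2, and there *Pmaip1* was at 6.98 RPM in XGFPhigh cells and 26.3 in XGFP+ constitutive cells, a ratio of 0.265 that was past the limit, against 0.870 over both lanes. *Bbc3* averaged under 5 RPM over XGFPhigh and XGFPintermediate cells and was not counted, but on lane 3 it reached that level and was 3.41-fold higher in XGFPhigh cells. *Trp53* in XGFPhigh against XGFPlow cells also fell under it without the limit on *Dazl* (1.92-fold). Of 23 p53 target genes at a sufficient level, 5 were past the limit upward and 2 downward in XGFPhigh against XGFPintermediate cells, with a median log2 ratio of 0.18 against −0.21 for all genes.

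Markers of other states moved with these populations. The summed level of 7 meiosis genes was 6086 and 4657 RPM in XGFPintermediate and XGFPlow cells and 2136 and 1806 in XGFPhigh and XGFP+ constitutive cells, and 6 naive pluripotency genes were at 180 and 199 against 1138 and 867. Within each population, *Trp53* also ran against the meiosis genes from cell to cell, with Spearman correlations of −0.53 in the 76 XGFP+ constitutive cells, −0.46 in XGFPhigh, −0.57 in XGFPintermediate and −0.36 in the 91 XGFPlow cells. The corresponding values for *Mcl1* were weak, from −0.14 to −0.29. In the same order of populations *Bax* was at −0.36, −0.26, −0.49 and 0.07, and *Bbc3* at 0.03, −0.18, −0.38 and 0.04. Values of *Trp53* with the total reads of a cell lay between −0.11 and 0.22, and with its mitochondrial share between −0.29 and 0.28. The cells of a population share a library preparation, and these correlations are a description. Markers of gonadal somatic cells were near 0, at 1.38 to 4.58 RPM for 7 genes, with *Emx2* at 0 in every population, and those of blood and endothelium were at 35 to 57.4 for 4 genes.

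The 61 of 462 quality cells with a natural-log normalized *Dazl* of 1 or less (12 XGFP+ constitutive, 7 XGFPhigh, 12 XGFPintermediate and 30 XGFPlow) had another profile. *Bcl2* was at 17.7 RPM (16.4 to 19.1), with reads in 14 of the 61 cells and 29.7% of its reads in 1 of them, and was below 1 in each germ cell population. *Bbc3* was at 21.3, *Bcl2l11* at 35.5 and *Bcl2l1* at 36.5 RPM in summed reads, each above all 4 germ cell populations. These sums leaned on few cells, with 38.9%, 15.0% and 17.1% of the reads in 1 cell. The median cells were at 0, 14.4 and 11.5 RPM, each within the range of the medians of the germ cell populations. *Trp53* (272) and *Bax* (268) lay within the range of the summed values of those populations. In these cells gonadal somatic markers summed to 76.1 RPM and blood and endothelial markers to 153, the germ cell markers to 56 and the naive pluripotency genes to 609. The *Dazl* limit chose these cells, and they are described without a test.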

How the data were processed

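The bulk values of 16 libraries (4 each of ESCs, EpiLCs, XGFP+ and XGFP- PGCLCs) are a normalized signal: the authors aligned stranded total RNA reads with STAR to mm10 with strain variants masked, counted them with HTSeq 0.6.1 and divided each library by its DESeq2 size factor. Single-cell values are full-length SMART-seq read counts per gene and cell as deposited by the authors. Allelic values are a fraction made by the authors, *mus* reads over *mus* plus *cas* reads, without read numbers, and 4 columns of samples from elsewhere were not used.

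The 10 genes and the gene lists were chosen with earlier results of these data known. limma 3.58.1 (limma-trend) was fitted to log2(normalized count + 1) over all 16 libraries and 16281 genes with a mean above 10, two-sided, with Benjamini-Hochberg adjustment over all genes and calls at an adjusted p below 0.001, for 6 comparisons. In all 16 libraries the values were whole multiples of a step, so whole reads could be recovered. On 14 of them edgeR 4.0.16 (quasi-likelihood, TMM) and DESeq2 1.42.0 were run. EpiLC replicates 2 and 3 were left out because their steps, 0.989 and 0.994, were so close to 1 that they were taken for rounding. In these tests EpiLCs were thus represented by replicates 1 and 4 only. The fits were tested on simulated data. 232 genes had no name in the annotation. None of the 19 pairs within groups among these 14 libraries agreed within sampling noise.

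Replicate numbers were checked for pairing: deviations from the group means in same-numbered libraries of both PGCLC groups correlated at 0.253, 0.135, 0.200 and 0.307 over genes, whereas in the other comparisons not every pair passed 0.1. The pairing comes from the data, since the labels do not say what a number shares.

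Cells were kept with at least 4000 genes, 10000 reads, at most 5% mitochondrial reads and natural-log normalized *Dazl* above 1. Wells held 1 sorted cell and no doublet caller was run. All 10 genes are named, with at most 6 genes per list that were called with an absolute log2 change of at least 1 in any comparison, the 2 X-linked list genes, and the 3 genes most like *Trp53* and like the gene with the widest range. *Ggnbp1* was added after its values were seen. Gene positions come from GENCODE vM21 (mm10) and promoters from RefSeq. A gene that this rule names is not reported here.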

Additional observations from a re-analysis of the deposited data

How the results depend on the processing

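Of 1560 values of the 10 genes recomputed under the bulk alternatives, 1472 kept their direction and their side of the threshold, 48 lost a call, 36 gained one and 4 changed sign, none of the 4 being a call in either setting. The sign changes were *Trp53* in EpiLCs against ESCs, at 0.021 with quantile normalization and 0.0095 without ESC replicate 4 (−0.055 to 0.0095 over all single libraries left out), *Bid* in XGFP- PGCLCs against EpiLCs, at −0.015 with quantile normalization, and *Bcl2l1* in XGFP- PGCLCs against ESCs, at −0.00045 with quantile normalization. With an absolute log2 fold change above 1 as a further condition, 4 genes were called in EpiLCs against ESCs (25.8% of all genes), 4 in XGFP+ PGCLCs against EpiLCs (30.4%), 1 in XGFP- against XGFP+ PGCLCs (11.2%), and 2 each in XGFP+ and XGFP- PGCLCs against ESCs (24.8% and 33.5%). At an adjusted p below 0.05 (limma), 9 were called between PGCLC groups (48.6% of all genes) and 8 in XGFP- PGCLCs against ESCs (76.4%). Leaving out 1 library at a time gave 6 to 7 calls in EpiLCs against ESCs, 7 to 8 in each PGCLC group against EpiLCs, 1 to 3 between PGCLC groups, and 5 to 6 in each PGCLC group against ESCs. The count of 1 between PGCLC groups, *Bak1*, came without XGFP+ replicate 1 or 2 or XGFP- replicate 1 or 2. With the replicate block, the counts of calls in EpiLCs against ESCs, XGFP+ and XGFP- PGCLCs against EpiLCs, XGFP- against XGFP+ PGCLCs, and XGFP+ and XGFP- PGCLCs against ESCs were 7, 8, 8, 3, 6 and 5, the block changed no call other than the 2 of *Bcl2l1* given above, and 7, 8, 7, 3, 5 and 5 were called without it. edgeR called 6 and DESeq2 7 genes in XGFP+ PGCLCs against EpiLCs.

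Of the single-cell folds of genes at a sufficient level, 7 values fell back under the 2-fold limit and 2 passed it under an alternative. *Bbc3* in XGFPhigh against XGFPintermediate cells, otherwise too low to be counted, reached that level and passed without the limit on *Dazl* (3.63-fold), without any filter on cells (3.53-fold) and on lane 3 (3.41-fold). On lane 2 alone, 1 gene (*Pmaip1*, at 0.265 of the XGFP+ constitutive level) was past it in XGFPhigh against XGFP+ constitutive cells, 0 in XGFPhigh against XGFPintermediate and 1 (*Mcl1*, 2.82-fold) in XGFPhigh against XGFPlow cells. Without the limit on *Dazl*, or without any filter on cells, 1 gene was past it in XGFPhigh against XGFPlow cells. Lane 3 held no XGFP+ constitutive cell, so that comparison could not be made on it. The causes were not tested. Counts were low for *Bcl2* outside EpiLCs in bulk and for *Bak1* and *Bcl2* in the single germ cells, so differences there rest on few reads.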
